A study of Mus musculus with 8 samples.

Results

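The loci of 9 genes that mark the formative and primed epiblast, Otx2, Pou3f1, Fgf5, Grhl2, Cdh2, Cldn6, Zic2, Foxd3 and Sox4, were followed through lists of peaks of H3K27ac, the acetylated histone H3 lysine found at active promoters and enhancers. The genes were chosen by name, with earlier results of these data known. They are 9 of the 21887 protein-coding genes of the mouse RefSeq table. A locus was the gene's mm10 interval with 50 kb added on each side. The cells were mouse embryonic stem cells of the line E14tg2a, of the 129SV background strain, that stably express cRAF-ErT2, a RAF kinase joined to an oestrogen receptor domain that responds to 4-hydroxytamoxifen (4OHT). Cells given 250 nM 4OHT for 2 h were compared with untreated cells, in 2 clones (a and b) each. All 4 cultures had been kept in serum with LIF and 2 uM Chir99021 and moved 24 h beforehand to serum with LIF and 250 nM PD173074, an inhibitor of the FGF receptor, so the untreated cells carried the inhibitor too. The labels name no vehicle for the untreated cells, and activity of ERK, the kinase downstream of RAF, was not measured in these files, so effects of 4OHT itself and of RAF activation cannot be told apart.

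Embryonic stem cells resemble the naive epiblast of the blastocyst, and on leaving that state they pass through a formative phase before they reach the primed epiblast of the egg cylinder. FGF signalling through ERK is a known driver of this exit. Otx2, Pou3f1 (also called Oct6), Grhl2, Zic2, Foxd3 and Sox4 encode transcription factors: OTX2 redirects enhancer use in the formative phase, GRHL2 opens enhancers of epithelial genes, FOXD3 is needed to maintain the epiblast, ZIC2 binds epiblast enhancers, and POU3F1 and SOX4 belong to the POU and SOX families. Fgf5 encodes a secreted FGF ligand and is the classical marker of the postimplantation epiblast. Cdh2 encodes N-cadherin, and Cldn6 a claudin of epithelial tight junctions.

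The 4OHT libraries held 59170 and 62764 peaks in clones a and b, covering 51.5 and 50.7 Mb, against 61203 and 63276 peaks covering 53.1 and 50.4 Mb in the untreated libraries. The lists carry no read counts, and a locus without a called peak may still have carried the mark. All 10 embryonic stem cell markers examined had a peak over the gene in every library, with summed lengths of 105 and 98.0 kb in 4OHT cells and 97.5 and 91.7 kb in untreated cells. Of 4 mesoderm markers, 2 had a peak in each 4OHT library (0.832 and 0.514 kb in all) and 0 in untreated cells, with T and Tbx6 without a peak in any library. Trophoblast markers had peaks at 4 of 5 genes in each 4OHT library (12.6 and 12.2 kb) and at 3 of 5 in each untreated library (9.15 and 8.59 kb), with Elf5 at 0. Fibroblast markers had peaks at 2 of 5 genes with 4OHT (1.91 and 1.99 kb) and at 1 of 5 without (0.657 and 0.711 kb), with Prrx1, Col1a2 and Thy1 at 0. Primitive endoderm markers had peaks at 1 and 2 of 6 genes with 4OHT (0.407 and 0.870 kb) and at 0 and 2 without (0 and 0.496 kb), with Foxa2, Pdgfra and Sox7 at 0. Of 3 neural markers, 2 had a peak in every library (4.33 and 3.15 kb with 4OHT, 2.82 and 1.66 kb untreated), and Neurod1 had none. The part of these cell types in the results at the 9 loci was not tested.

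A promoter is printed for each of 4 genes, to show the sequence that a peak reached in at least 1 library. The sequences are RefSeq's, build GRCm38.p6, from 250 bases before to 50 bases after the start site. For Otx2 the window is chr14:48665060-48665359 on the minus strand, for Foxd3 chr4:99656049-99656348 on the plus strand, for Cldn6 chr17:23679115-23679414 on the plus strand and for Sox4 chr13:28953650-28953949 on the minus strand. Capitals mark a match to one of 7 motifs searched on both strands.
Otx2: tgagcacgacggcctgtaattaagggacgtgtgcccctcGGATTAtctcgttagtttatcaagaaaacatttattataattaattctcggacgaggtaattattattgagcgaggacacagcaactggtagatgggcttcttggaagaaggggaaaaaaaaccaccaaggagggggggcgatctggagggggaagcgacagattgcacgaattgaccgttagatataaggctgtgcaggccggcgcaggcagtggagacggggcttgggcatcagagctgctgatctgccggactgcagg
Foxd3: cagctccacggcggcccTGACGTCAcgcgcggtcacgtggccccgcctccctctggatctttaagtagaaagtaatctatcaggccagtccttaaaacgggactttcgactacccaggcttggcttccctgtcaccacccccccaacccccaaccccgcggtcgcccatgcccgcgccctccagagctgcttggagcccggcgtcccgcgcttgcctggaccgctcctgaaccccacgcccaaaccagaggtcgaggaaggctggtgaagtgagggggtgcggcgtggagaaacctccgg
Cldn6: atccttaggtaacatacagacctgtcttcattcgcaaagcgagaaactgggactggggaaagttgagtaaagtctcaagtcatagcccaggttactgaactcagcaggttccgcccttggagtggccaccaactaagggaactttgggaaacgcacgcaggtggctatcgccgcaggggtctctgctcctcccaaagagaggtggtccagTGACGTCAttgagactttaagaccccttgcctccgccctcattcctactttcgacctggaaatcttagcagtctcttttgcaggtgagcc
Sox4: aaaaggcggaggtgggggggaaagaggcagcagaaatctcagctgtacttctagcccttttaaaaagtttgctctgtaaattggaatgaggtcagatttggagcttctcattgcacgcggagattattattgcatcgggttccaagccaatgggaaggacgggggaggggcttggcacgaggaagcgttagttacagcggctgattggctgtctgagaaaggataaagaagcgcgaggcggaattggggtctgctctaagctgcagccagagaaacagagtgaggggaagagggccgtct
Peaks covered all 300 bases of this Otx2 promoter and of the Foxd3 promoter in each of the 4 libraries. At the Cldn6 promoter a peak reached over 39 bases in the 4OHT library of clone a and over 0 in the other 3 libraries. At the Sox4 promoter a peak covered 184 bases in the untreated library of clone a and 0 in the rest. The Otx2 match was to the OTX2 motif TAATCC, on the opposite strand from bases 40 to 45, and this motif is in 7.06% of 32851 RefSeq promoters of this length. The Foxd3 and Cldn6 matches were to the palindromic CRE motif TGACGTCA, from bases 18 to 25 and from bases 211 to 218, and this motif is in 1.79% of the promoters. The other motifs searched were AP-1 (TGANTCA, in 7.81% of promoters), ETS (CCGGAA, 14.9%), the POU octamer (ATGCAAAT, 1.74%), GRHL (AACCGGTT, 0.146%) and TCF (CTTTGAT, 3.73%), and none of these had a match in the 4 windows. No matches overlapped one another. The table held promoters for 5 of the 9 genes. Of the other Otx2 windows, one was partly covered, over 88 and 135 bases with 4OHT and 102 and 126 bases without, and 2 had no peak in any library. The Fgf5 window, which held 1 ETS match, had no peak in any library.

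Of the 9 loci, 3 had a greater length covered by H3K27ac peaks in 4OHT cells than in untreated cells and 0 had a shorter one past the threshold (limma on log2 of covered bases plus 500, Benjamini-Hochberg adjusted p under 0.05 over all loci tested). The 3 were Pou3f1, Cdh2 and Cldn6. Over the 16049 protein-coding loci tested, 4.00% were longer and 2.87% shorter by this rule. Of the 9 members, 8 were tested, since Fgf5 had no peak. Their median log2 change was 0.45, beside 0.08 over all loci. The members were chosen with earlier results of these data known, so these comparisons with all loci are not independent. The median lay between 0.12 at Zic2 and 0.78 at Grhl2, and it changed with the peaks, the window and the members tested. It was 0.71 beside 0.10 with the upper 50% of peaks by score and 0.22 beside 0.06 in a window of 100 kb. With only peaks no nearer to another gene it was 0.04 beside 0.06, for the 6 members still tested. Pou3f1 and Cldn6, at 1.56 and 1.34 in the main fit, were not tested there, so the medians are of different sets. Among the 6, the log2 difference moved only at Otx2, from -0.67 to -0.73, and at Zic2, from 0.12 to 0.34. Both 4OHT libraries lay above both untreated libraries at 5 of the 8 loci and below both at 3 of 8, while such separation upward was seen at 37.1% and downward at 21.7% of all loci. Because each clone gave a treated and an untreated library, a fit with clone as a replicate block was also made. With it 4 members were longer and 2 shorter, against 22.7% and 15.5% of all loci. In the main fit the p-values rest on the spread between the 2 clones of a treatment. In the block fit they rest on how far the treatment difference varies between the 2 clones. Both fits also borrow variance over all loci.

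**Figure D1:**
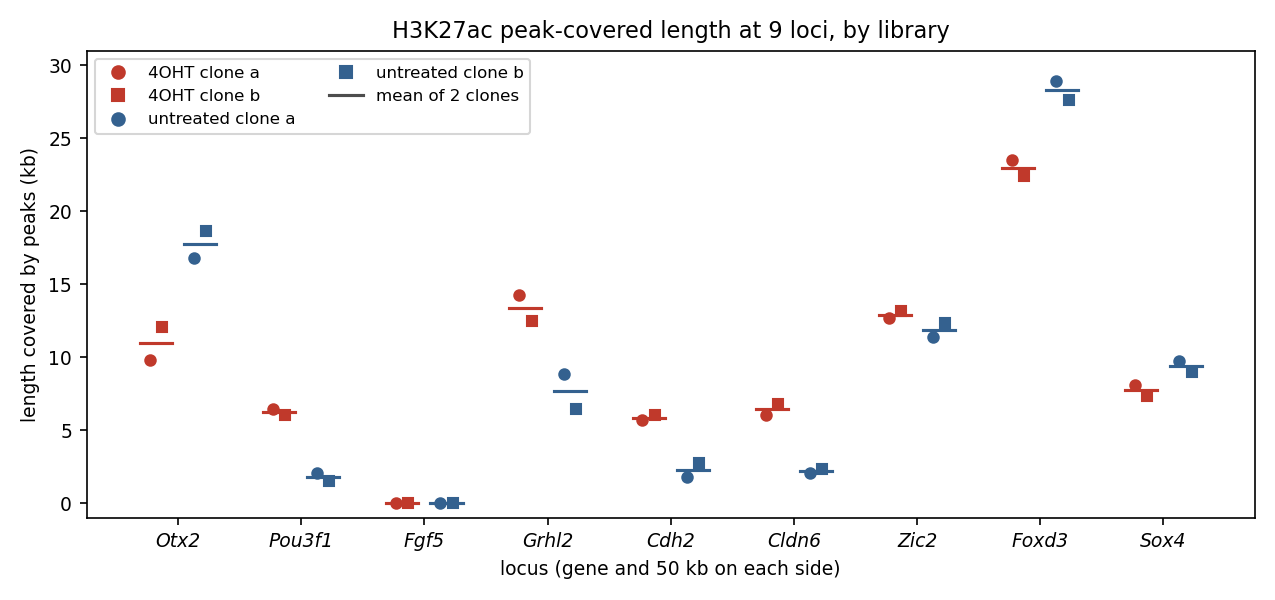
Length covered by H3K27ac peaks (kb) at each of the 9 loci, the gene with 50 kb on each side, with 4OHT libraries left of untreated libraries, 1 point per library and a line at the mean of 2 clones. Pou3f1, Grhl2, Cdh2 and Cldn6 sit higher in both 4OHT libraries, Otx2, Foxd3 and Sox4 sit lower, Zic2 differs little and Fgf5 is at 0.

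The Otx2 locus, which holds no other protein-coding gene, had 9.83 and 12.1 kb of peaks in the 4OHT libraries (clones a and b), against 16.8 and 18.7 kb in the untreated libraries. Both 4OHT values lay below both untreated values, and the log2 difference was -0.67 ± 0.15 (SE). The difference did not pass the threshold (adjusted p = 0.0572, limma). Of 16 alternative settings, all with the same direction, it passed in 3. These were clone as a replicate block (adjusted p = 0.000629), whole peaks (0.0435) and a window of 100 kb (0.0422). In a window of 10 kb the log2 difference was only -0.18 (adjusted p = 0.586, limma). The shorter length lay mostly on one side. On the upstream side of this minus-strand gene, peaks covered 1.04 and 1.42 kb with 4OHT and 6.26 and 7.38 kb without. Over the gene they covered 3.74 and 5.51 kb with 4OHT and 4.77 and 5.78 kb without, and on the downstream side 5.05 and 5.18 kb with 4OHT and 5.76 and 5.50 kb without. Both flanks were less covered in both 4OHT libraries, by less than 1 kb downstream and by several kb upstream.

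A region 31.8 kb upstream of Otx2 (chr14:48699468-48702048) had the largest difference among the regions of this locus called in all 4 libraries. Its peaks covered 272 and 657 bases in 4OHT cells and 2261 and 2581 bases in untreated cells. The log2 difference was -2.51 ± 0.47 (SE), with an adjusted p of 0.123 over 30131 regions in limma and 0.0601 with the clone block. Beyond it, 2 regions that began 34.6 and 42.3 kb upstream were called in both untreated clones and in no 4OHT library. The nearer of these had 305 and 570 bases and the farther one 882 and 1117 bases in untreated cells. By contrast the region that spans the downstream end of Otx2 had 5262 and 5521 bases with 4OHT and 5686 and 5804 bases without, a log2 difference of -0.09 ± 0.07, and the promoter region printed above had 1469 and 2540 bases with 4OHT and 2270 and 2594 without.

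The Foxd3 locus was the most covered of the 9, with 23.5 and 22.4 kb of peaks in 4OHT cells and 29.0 and 27.7 kb in untreated cells. The 4OHT values lay below the untreated values with a log2 difference of -0.30 ± 0.10 (SE). The adjusted p was 0.136 in limma and 0.00251 with the clone block. The number of peaks, in place of their length, gave a log2 difference of 0.020. Here the shorter length lay downstream of this plus-strand gene, where peaks covered 6.43 and 5.66 kb with 4OHT and 11.7 and 11.2 kb without. Upstream of the gene the libraries were alike, at 14.9 and 14.6 kb with 4OHT and 14.9 and 14.3 kb without. Over the gene peaks covered slightly less with 4OHT, at 2.18 and 2.16 kb against 2.27 and 2.19 kb without.

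The largest difference in bases was at a region 8.30 kb downstream of Foxd3, which had 2907 and 2115 bases with 4OHT and 5536 and 5216 without. Its log2 difference was -1.12 ± 0.18 (SE; adjusted p = 0.103 in limma, 0.0523 with the clone block). A region 3.27 kb downstream had 996 and 1036 bases with 4OHT and 1818 and 1795 without, a log2 difference of -0.83 ± 0.14. Another, 14.8 kb downstream, had 861 and 301 bases with 4OHT and 1866 and 1629 without. All 3 were shorter in both 4OHT libraries than in either untreated library. A small region 13.9 kb downstream was called in both untreated clones, at 281 and 286 bases, and in no 4OHT library, while one 22.3 kb upstream was called only in the 4OHT libraries, at 200 and 642 bases. The region over the start of Foxd3 had 2760 and 2737 bases with 4OHT and 2947 and 2806 without, so the promoter printed above stayed under a peak of similar length.

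**Figure D2:**
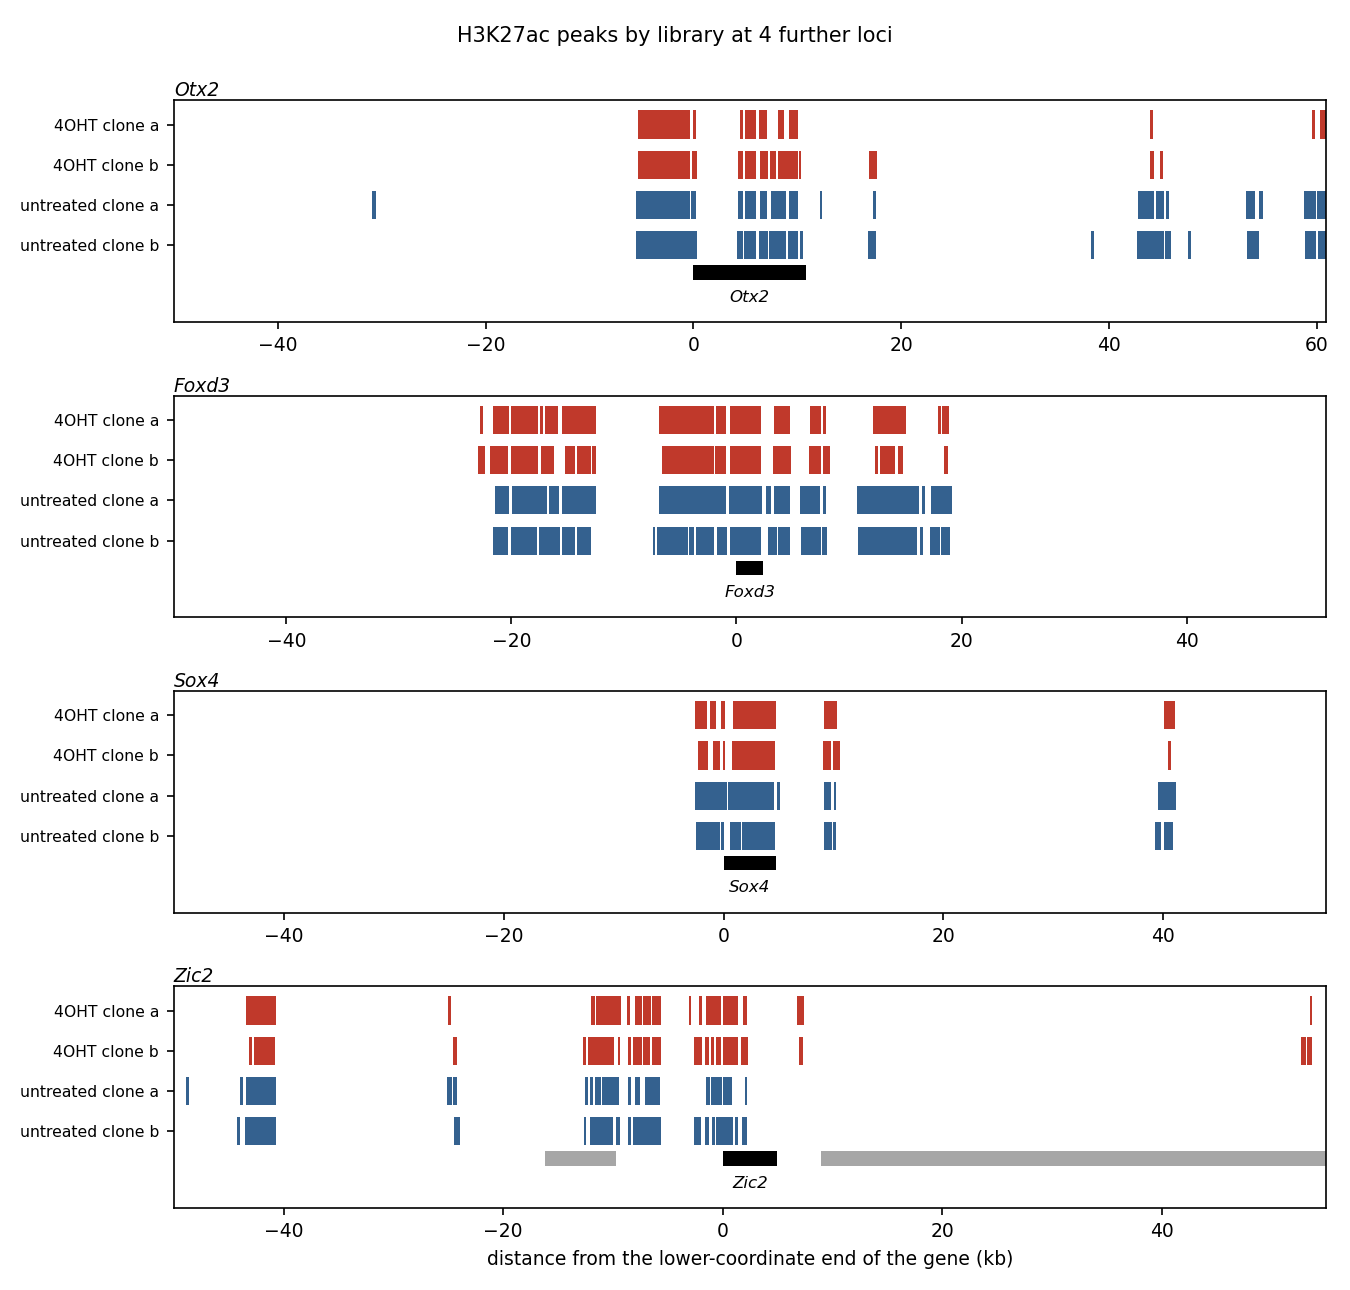
Maps of H3K27ac peaks at Otx2, Foxd3, Sox4 and Zic2, with distance from the gene's lower coordinate in kb on the x axis and 1 row per library, 4OHT above untreated; the dark bar is the member gene and grey bars are other protein-coding genes. The rows for 4OHT hold few peaks beyond the higher-coordinate (upstream) end of Otx2 and shorter ones beyond the higher-coordinate end of Foxd3.

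Sox4, the SOX-family member, had 8.13 and 7.32 kb of peaks with 4OHT and 9.76 and 8.996 kb without, and its locus too holds no other protein-coding gene. The groups did not overlap, and the log2 difference of -0.27 ± 0.13 (SE) did not pass in limma (adjusted p = 0.251) or with the clone block (0.0566). The region over the gene was slightly shorter in both 4OHT libraries, at 3832 and 3889 bases with 4OHT and 4161 and 4021 without. The region at the downstream end of the gene was shorter with 4OHT, at 2052 and 1726 bases against 2891 and 2551 bases untreated. A region 4.29 kb upstream was longer in both 4OHT libraries, with 1235 and 1409 bases with 4OHT and 852 and 961 without. The largest difference was at a region 34.4 kb upstream, which had 1010 and 295 bases with 4OHT and 1604 and 1463 without. Its log2 difference was -1.49 ± 0.63 (SE). None of these regions passed the test of region lengths.

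Zic2 lies beside Zic5, which encodes a related zinc-finger factor, and Pcca, so its window holds peaks of these genes too. Its locus had 12.7 and 13.2 kb of peaks with 4OHT and 11.4 and 12.3 kb without. The log2 difference was 0.12 ± 0.11 (SE; adjusted p = 0.542 in limma), and it turned to -0.32 in a window of 100 kb, so no direction is given for Zic2. The region over the start of the Zic2 interval had 2797 and 2550 bases with 4OHT and 2149 and 2389 bases without. The 2 regions of this locus called in both 4OHT libraries only were both nearest to Pcca, one 1.85 kb beyond Zic2 and one within Pcca.

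Fgf5 had no peak in any of the 4 libraries, neither over the gene nor in the 50 kb on each side. Covered length at this ligand gene was 0 kb with 4OHT and 0 kb without, so it was left out of the main test, which needs a mean of at least 1000 bases. Signal below the limit of the peak caller cannot be assessed from these lists.

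The Pou3f1 locus had 6.47 and 6.05 kb of peaks in 4OHT cells and 2.08 and 1.54 kb in untreated cells. The 4OHT libraries were above the untreated ones, with a log2 difference of 1.56 ± 0.18 (SE; adjusted p = 0.0245 in limma). A region over the lower-coordinate end of the gene, chr4:124657649-124658320, had 672 and 534 bases in the 4OHT libraries and no peak in either untreated library. Another, 0.289 kb below the gene, had 620 and 634 bases with 4OHT and 310 and 0 without, in clones a and b. Most of the difference lay farther off, in regions nearer to Utp11 or Fhl3, a nucleolar protein gene and a LIM-domain protein gene whose windows also passed. The Utp11 window had 8.01 and 7.35 kb with 4OHT and 3.51 and 2.45 kb without, and the Fhl3 window 8.82 and 8.06 kb with 4OHT and 3.801 and 2.75 kb without. When only peaks no nearer to another gene were kept, Pou3f1 had 1.29 and 1.17 kb with 4OHT and 0.310 and 0 kb without, a mean under the minimum of 1000 bases for the test.

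Cldn6 lies among 8 other protein-coding genes, and its locus had 6.06 and 6.82 kb of peaks with 4OHT and 2.11 and 2.36 kb without. The 4OHT libraries were above the untreated ones by 1.34 ± 0.15 on the log2 scale (SE; adjusted p = 0.0240 in limma). The region over Cldn6 itself had 629 and 626 bases with 4OHT and 201 and 200 bases without, a log2 difference of 1.65 ± 0.21 (adjusted p = 0.0896 in the test of region lengths). The shortest peak in every list had 200 bases. The untreated lengths thus lay at this minimum, and the log2 difference depends on it. The untreated peaks of clones a and b did not overlap each other and were joined into this region through the 4OHT peaks. Each 4OHT library had a longer peak there than either untreated library. A peak reached the promoter printed above in the 4OHT library of clone a only. With 4OHT the peak began 0.028 and 0.336 kb into the gene in clones a and b. Without it the peak began 0.386 and 0.600 kb in. The larger difference in bases was at a region that begins 5.92 kb below the Cldn6 start and overlaps Thoc6, Hcfc1r1 and Tnfrsf12a, with 3877 and 3881 bases with 4OHT and 728 and 915 without. In each untreated library this region held 2 separate peaks near its ends, joined through 4OHT peaks over the stretch between them. The region's log2 difference of 2.25 ± 0.16 had an adjusted p of 0.0777 in limma and 0.04999 with the clone block. The windows of Thoc6, Hcfc1r1, Tnfrsf12a and Cldn9 share these peaks, and with peaks no nearer to another gene Cldn6 kept only 0.629 and 0.626 kb with 4OHT and 0.201 and 0.200 kb without, too little to be tested.

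At Cdh2, a long gene with no other protein-coding gene in its window, peaks covered 5.71 and 6.03 kb with 4OHT and 1.77 and 2.78 kb without. The log2 difference was 1.22 ± 0.22 (SE; adjusted p = 0.0408 in limma), with both 4OHT libraries above both untreated ones. Most of it lay inside the gene, in a cluster that began 122 kb from its lower coordinate. One region there, 123 kb in, had 1925 and 2064 bases with 4OHT and 350 and 651 without, a log2 difference of 2.06 ± 0.35 (adjusted p = 0.112). The same cluster held a second region called in all 4 libraries, with 763 and 841 bases with 4OHT and 552 and 504 without. At its outer edges lay 2 regions called in both 4OHT clones and in no untreated library, of 430 and 435 bases and of 418 and 357 bases. A region just inside the higher-coordinate end had 557 and 871 bases with 4OHT and 249 and 411 without. The region that spans this end had 880 and 803 bases with 4OHT and 0 and 354 without.

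The calls at Pou3f1, Cdh2 and Cldn6 were lost when the 4OHT library of clone a, the 4OHT library of clone b or the untreated library of clone a was left out (adjusted p between 0.0712 and 0.156 in limma), and held without the untreated library of clone b (0.0460, 0.0452 and 0.0460). In the first 3 of these fits 0 of all 16049 loci passed in either direction (at an unadjusted p under 0.05, from 1665 to 2008 were longer and from 1194 to 1419 shorter), so the loss is not particular to these members. The log2 differences in those 3 fits stayed between 1.52 and 1.73 at Pou3f1, 0.96 and 1.26 at Cdh2 and 1.26 and 1.42 at Cldn6.

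**Figure D3:**
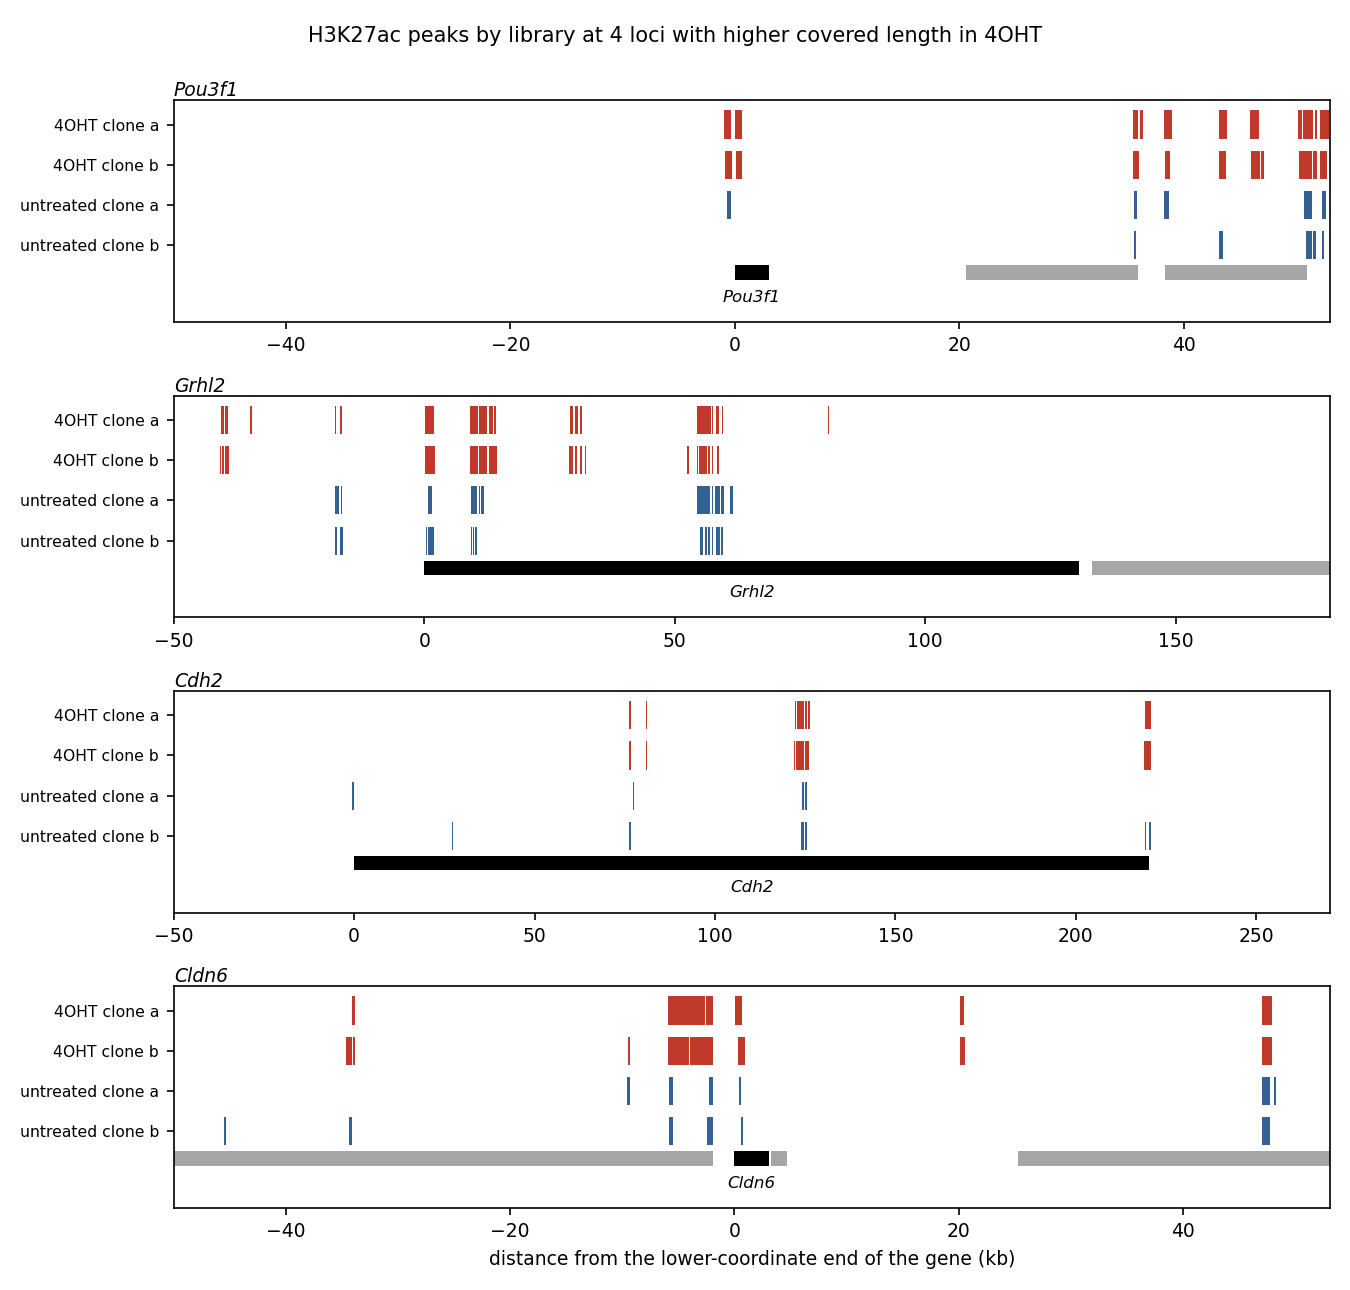
Maps of H3K27ac peaks at Pou3f1, Grhl2, Cdh2 and Cldn6, with distance from the gene's lower coordinate in kb on the x axis and 1 row per library, 4OHT above untreated; the dark bar is the member gene and grey bars are other protein-coding genes. Peaks present only in the 4OHT rows lie inside Grhl2 and Cdh2, while at Pou3f1 and Cldn6 most of the extra length lies nearer to neighbouring genes.

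Grhl2 had 14.2 and 12.5 kb of peaks with 4OHT and 8.83 and 6.49 kb without. The groups did not overlap, and the log2 difference of 0.78 ± 0.18 (SE) had an adjusted p of 0.0641 in limma and 0.000897 with the clone block. Nearly all of the peaks lay inside the gene, 12.1 and 11.1 kb with 4OHT and 7.76 and 5.51 kb without. This locus had the most regions called in both 4OHT clones and in no untreated library, 6 of its 20. Of these, 4 lay within the gene, from 12.9 to 31.1 kb in, the longest with 1307 and 1527 bases, and 2 lay 39.9 and 39.0 kb below it. Regions called in all 4 libraries did not all differ in one direction: one 0.094 kb into the gene had 1904 and 2082 bases with 4OHT and 731 and 1359 without, and one 58.0 kb in had 677 and 290 bases with 4OHT and 958 and 871 without.

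Across the 9 loci there were 103 regions, of which 15 were gained (called in both 4OHT libraries and in no untreated library) and 3 were lost (called in both untreated libraries and in no 4OHT library). That is 14.6% and 2.91% of the member regions, beside 6.20% and 6.26% of 82792 regions over the genome. The loci were chosen with earlier results of these data known, so this comparison is not independent. The balance depended on the peaks and the window used, with 4 gained and 4 lost among the top 20000 peaks by score and 17 gained and 13 lost in a window of 100 kb. Without 1 library at a time there were 18 to 21 gained and 6 to 14 lost, the 14 without the untreated library of clone b, the 10 without that of clone a, the 8 and 6 without the 4OHT libraries of clones a and b. Leaving out a library loosens the rule, since 1 library then decides for its treatment. For these alternative counts the share over the genome was not computed, so whether regions elsewhere moved alike is not known. Gained regions lay at Grhl2 (6), at Pou3f1, Cdh2, Cldn6 and Zic2 (2 each) and at Foxd3 (1). Lost regions lay at Otx2 (2) and Foxd3 (1), and none of them overlapped the member gene, while 7 of the 15 gained regions did. Of the 8 gained regions off the member gene, 5 were nearer to another gene. Regions called in all 4 libraries made up 40 of the 103, or 38.8%, beside 36.4% over the genome.

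**Figure D4:**
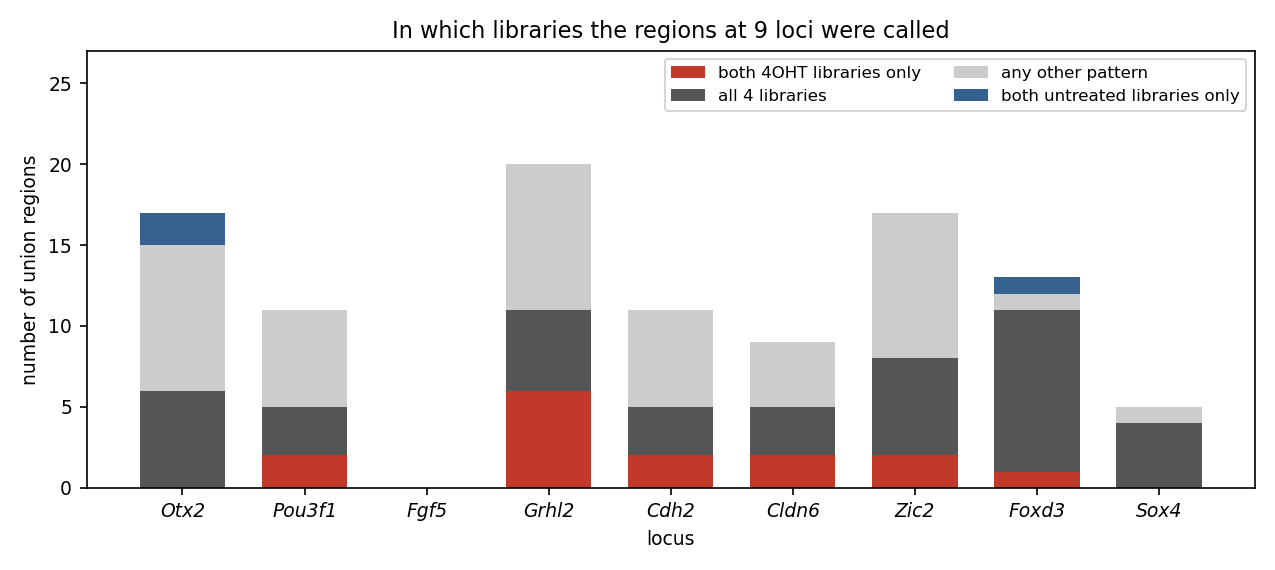
Number of H3K27ac regions at each of the 9 loci by the libraries in which they were called, with 4OHT only (gained), untreated only (lost), all 4 libraries and other combinations. Grhl2 has the most gained regions, 6, and the 3 lost regions are at Otx2 and Foxd3.

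The score is the authors' own value for a peak, with no stated scale, and was used only as a rank within each list. Gained regions had a median score percentile of 49.6 and 43.7 in the 4OHT libraries of clones a and b, and lost regions of 39.0 and 42.2 in the untreated libraries. Regions called in all 4 libraries had medians from 73.3 to 78.2. The same order held over all regions of the genome, where the medians were 33.7 and 38.1 for gained, 34.0 and 31.5 for lost and from 71.9 to 72.6 for regions in all 4 libraries, so it is not particular to these loci.

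Among the 40 member regions called in all 4 libraries, 0 were longer and 0 shorter past the threshold in limma, and the same was true of all 30131 such regions (0% each way). At an unadjusted p under 0.05 there were 11 longer and 5 shorter member regions, beside 2520 and 2549 over the genome. With clone as a replicate block 1 member region was longer, while 0.335% of all regions were longer and 0.511% shorter. It was the one beside Cldn6, where each untreated library held 2 separate peaks joined through the 4OHT peaks. Both 4OHT libraries were longer than both untreated ones at 16 of the 40 regions and shorter at 13, beside 27.3% and 21.5% of all regions. At Pou3f1, Cdh2 and Cldn6 all 3 such regions of each locus were longer in both 4OHT libraries. By contrast, 6 of 10 at Foxd3, 3 of 4 at Sox4 and 2 of 6 at Otx2 were shorter in both. The regions in the Pou3f1 window were all nearest to Utp11 or Fhl3. In the Cldn6 window only the region over the gene was nearest to Cldn6. That region had untreated lengths of 201 and 200 bases, at the minimum peak width of 200 bases.

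**Figure D5:**
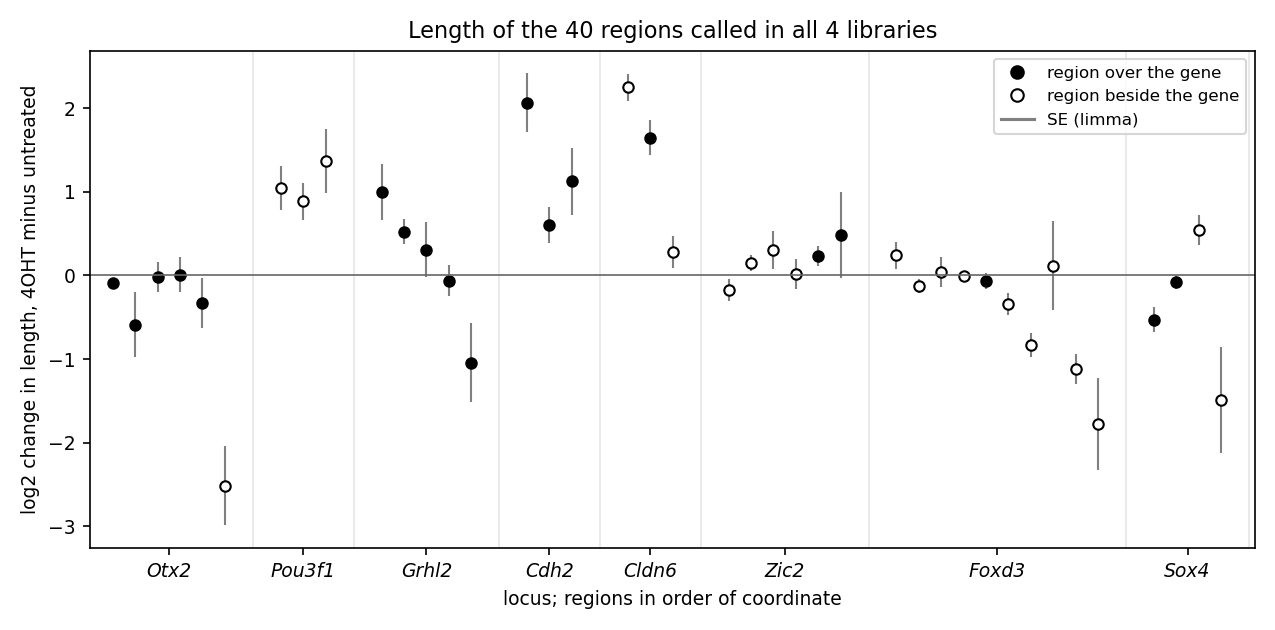
Log2 difference in length, 4OHT minus untreated, of the 40 regions called in all 4 libraries, by locus, with filled points for regions over the gene, open points for regions beside it and bars for the SE from limma (2 clones each). The regions in the Pou3f1, Cdh2 and Cldn6 windows lie above 0, though at Pou3f1 all, and at Cldn6 most, are nearest to other genes. The lowest point is the upstream region of Otx2 at -2.51.

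Of 24 further genes listed for the formative transition, 23 were tested, and Sox3 had no peak in any library. Etv4, an ETS-family factor induced by FGF signalling, was longer, with 12.7 and 15.8 kb with 4OHT and 2.10 and 3.62 kb without (log2 difference 2.17 ± 0.25, adjusted p = 0.0247 in limma). Shorter loci were Dkk1, a WNT inhibitor gene, with 0.556 and 0.612 kb with 4OHT and 2.34 and 4.50 kb without, and Lefty1 and Lefty2, which encode NODAL inhibitors and share their windows. Lefty1 had 12.6 and 14.9 kb with 4OHT and 33.2 and 28.0 kb without, and Lefty2 had 15.0 and 18.4 kb with 4OHT and 39.1 and 33.1 kb without. The adjusted p in limma was 0.0411 for Dkk1, 0.0256 for Lefty1 and 0.0275 for Lefty2. The median log2 change of the list was -0.06, beside 0.08 over all loci, and with clone as a replicate block 7 were longer and 6 shorter. The main test called 1 longer and 3 shorter of 23, beside 4.00% and 2.87% of all loci, and the block fit is to be read against 22.7% and 15.5%.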

How the data were processed

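H3K27ac ChIP-seq peak lists of 4 libraries were used; 4 input libraries were not analysed here. The deposited lists give each peak's mm10 interval and a score that the authors' peak caller assigned, with no stated scale. Bowtie2, bedtools and MACS2 are named in the submitters' processing notes; how the inputs entered peak calling, and which versions and thresholds applied, is not given in the sources used here. Peaks overlapping by 1 base or more in any library were joined into regions. Covered length per locus, as log2 of bases plus 500, was tested with limma 3.58.1 in R 4.3.3 (trended empirical Bayes, all 4 libraries, no clone term) at loci averaging at least 1000 bases, with Benjamini-Hochberg adjustment over all loci and a threshold of 0.05; lengths of regions called in all 4 libraries were tested likewise on log2 bases. Tables were made with Python 3.11.15. The locus fit was run on simulated libraries drawn independently of one another. This was a check of the code and not of the calls, since the real libraries are paired by clone. All 9 members are named; other genes are named where a described region lies nearer to them, or where they passed the test among 24 further formative and primed genes. The labels give clones a and b under both treatments, so clones pair the libraries; over 16049 loci, which are not independent, clone a's departures from the mean of its treatment correlated between the treatments (Pearson's r = 0.61). Windows of neighbouring genes share peaks. The members, lists and motifs were chosen with earlier results of these data known. Alternatives changed the window, pseudocount, filter, peak set, scaling, clone term and libraries; the alternative that keeps only peaks no nearer to another gene was chosen after seeing the data.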

Additional observations from a re-analysis of the deposited data

How the results depend on the processing

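With clone as a replicate block, 4 members were longer and 2 shorter (Otx2 and Foxd3), and 1 shared region was longer. The number of longer members, 3, became 1 in a window of 100 kb and 0 with no filter on covered length, with the top 20000 peaks by score, by number of peaks, or with only peaks no nearer to another gene; leaving out 1 library gave 0 to 3. It was 2 in a window of 10 kb, beside 393 of all 11938 loci tested there. It was also 2 with the upper 50% of peaks by score, beside 179 of 14924. With lengths scaled to each library's total it was 4, beside 745 of 16049. Calls over all loci fell as well, to 88 longer of 21887 with no filter, 0 of 13758 with the top 20000 peaks (1813 at an unadjusted p under 0.05), 28 of 16049 by number of peaks and 260 of 10596 with peaks no nearer to another gene, against 642 of 16049 in the main test; in the window of 100 kb there were 653 of 17993. The number of shorter members, 0, became 1 in a window of 100 kb and with whole peaks (Otx2 each time). Over all loci 427 of 17993 and 438 of 16074 were shorter in these 2 settings, against 461 of 16049 in the main test. The direction of the Zic2 locus reversed in a window of 100 kb (-0.32), and that of Foxd3 by number of peaks (0.020). The 15 gained regions became 6 with peaks within 1000 bp merged, 9 with the upper 50% of peaks by score, 4 with the top 20000 (and 4 lost) and 8 in a window of 10 kb; leaving out 1 library gave 18 to 21. The 3 lost regions became 1 with merging, 9 where peaks had to cover 50% of the region, 0 in a window of 10 kb and 13 in one of 100 kb; leaving out 1 library gave 6 to 14. With a library left out, 1 library decides for its treatment, so the rule for gained and lost regions is looser. Shares over the genome were not computed for these region counts. Otherwise the cause of these changes was not tested. A fit without 1 library leaves a lone library that is assumed to vary like the other treatment. Pou3f1 and Cldn6 could not be tested on peaks no nearer to another gene, and Pou3f1 could not be tested in a window of 10 kb, since their mean covered length was under the minimum. Depth is unknown, so how far it sets which peaks were called cannot be assessed.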
